A study of Mus musculus with 12 samples.

Results

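The MHC class I pathway cuts proteins made inside a cell into peptides and shows them at the cell surface to CD8+ T cells and natural killer cells. The 10 genes described here are H2-K1, H2-D1, H2-T23, B2m, Tap1, Tap2, Tapbp, Psmb8, Psmb9 and Nlrc5, chosen by symbol as core members of that pathway. All 10 were found by their Ensembl identifiers, among 56262 gene identifiers counted in lung tissue and 54532 counted in sorted cells, and all 10 passed the filter on low counts in both tables.

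The mice were C57BL/6, and the knockout animals lacked Med23 in their T cells, a gene for part of Mediator, which bridges transcription factors and RNA polymerase II. Tumours and adjacent normal tissue of the lung came from 3 knockout mice aged 18 months (102, 217 and 224), each giving both tissues, so the adjacent lung carried the deletion too and no wild-type lung is compared. Alveolar type 2 (AT2) cells, the epithelial cells that make surfactant, were sorted by flow cytometry from 3 knockout mice (175, 179 and 191) and 3 wild-type mice (176, 177 and 190) aged 6 months. The labels give neither the driver of the deletion nor how much of each piece of tissue was tumour, and the lung libraries are of whole tissue with its stroma, vessels and blood cells.

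In a working cell the proteasome makes the peptides, and under interferon its active subunits are replaced by inducible ones, among them Psmb8 and Psmb9, to form the immunoproteasome. The transporter built from Tap1 and Tap2 carries peptides into the endoplasmic reticulum, where tapasin, the product of Tapbp, helps load them on a heavy chain (H2-K1 or H2-D1, or the nonclassical H2-T23) paired with beta-2 microglobulin, the product of B2m. Nlrc5 is the transactivator of class I promoters, which it reaches through proteins bound at neighbouring X and Y boxes, and its relative Ciita does the same for class II promoters. Many tumours lower class I, which hides them from CD8+ T cells and can expose them to natural killer cells.

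Promoter sequences of these genes were searched for the letters of elements known from class I genes. Of the 10 genes, 8 had an entry in the RefSeq promoter table (GRCm38.p6), and Tap2 and Nlrc5 had none. For some genes the RefSeq start site differs from the gene coordinates given below. By those coordinates the windows of H2-D1, Tapbp, Psmb8 and Psmb9 lie inside the gene, and that of H2-T23 does in part. The core letters of the X2 box (TGACG) and of the Y box (ATTGG), searched on both strands of the 250 bases before the start site, stood in 5 and 7 of the 8 windows, against 17.8% and 33.8% of 32851 promoter windows. In H2-K1, H2-D1 and B2m the 2 elements stood on the gene's own strand with their first bases 25 bases apart, a spacing taken from H2-K1 after its sequence was seen. That arrangement was found in 18 of all windows (0.0548%). Tap1 and Psmb9 start back to back, so their windows share most of their DNA, and their X2 and Y cores are the same letters counted in both. Psmb8 had neither core, and Tapbp and H2-T23 had no X2 core. The 3 stretches are shown because they hold the arrangement that H2-K1, H2-D1 and B2m share, with both cores in capitals.
H2-K1 (chr17:34000359-34000388, minus strand): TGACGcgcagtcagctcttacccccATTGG
H2-D1 (chr17:35262993-35263022, plus strand): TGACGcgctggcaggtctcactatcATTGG
B2m (chr2:122147609-122147638, plus strand): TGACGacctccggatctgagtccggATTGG

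The H2-D1 stretch matches that of H2-K1 at 23 of 30 bases and the B2m stretch at 13 of 30, the 10 core bases included. An interferon-response-like motif (GAAANNGAAA) was in the windows of B2m and H2-T23 (3.0% of all windows), part of a kappaB site (GGGGATT) in those of H2-K1 and H2-D1 (2.8%), and an interferon gamma-activated-site-like motif (TTCNNNGAA) in that of Psmb8 (7.0%). A match says only that the letters are there. The H2-K1 window (chr17:34000348-34000597, minus strand) and the B2m window up to its annotated first exon (chr2:122147437-122147685, plus strand) are given to show where the motifs, in capitals, lie.
H2-K1 upstream window: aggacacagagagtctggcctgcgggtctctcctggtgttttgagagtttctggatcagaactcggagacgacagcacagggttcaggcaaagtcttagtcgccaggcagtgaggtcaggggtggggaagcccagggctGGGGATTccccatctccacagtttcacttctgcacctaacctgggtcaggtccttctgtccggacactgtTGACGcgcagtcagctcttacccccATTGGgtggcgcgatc
B2m upstream window: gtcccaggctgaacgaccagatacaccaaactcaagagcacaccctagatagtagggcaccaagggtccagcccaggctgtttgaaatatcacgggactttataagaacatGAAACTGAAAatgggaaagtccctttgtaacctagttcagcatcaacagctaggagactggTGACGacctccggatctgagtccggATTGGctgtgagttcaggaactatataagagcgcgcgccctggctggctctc

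Levels below are CPM, a gene's count scaled to one fixed library total, with totals adjusted by TMM normalisation within each table. Libraries held 65163100 to 77951014 counts in lung and 15943084 to 18913242 in AT2 cells. Med23 averaged 27.0 ± 9.29 CPM in tumours, against 27.5 ± 5.65 CPM in adjacent lung (SD, n = 3 each), and 44.7 ± 2.36 CPM in knockout and 40.3 ± 5.99 CPM in wild-type AT2 cells. Since the deletion was in T cells, these values check no label. In the AT2 libraries 12 AT2 markers summed to 184432 to 186467 CPM in knockout and 185541 to 250889 CPM in wild-type cells, while the endothelial cadherin Cdh5 was at most 0.467 CPM and the T cell gene Cd3d at most 0.241 CPM. Other markers were not as low. The 14 endothelial markers summed to 11.3 to 17.4 CPM in knockout and 12.2 to 12.6 CPM in wild-type cells, with Egfl7 at 3.39 to 7.28 CPM. The 13 T cell markers summed to 2.42 to 4.38 and 1.15 to 3.88 CPM, with Cd4 at up to 1.23 CPM. The alveolar type 1 gene Ager was at 879 to 908 CPM in knockout and 827 to 1188 CPM in wild-type cells, the airway gene Scgb1a1 at 403 to 514 and 371 to 485 CPM, and the leukocyte gene Ptprc at 4.67 to 13.2 and 4.07 to 6.47 CPM. Both libraries of mouse 217 and wild-type 177 had the highest levels of short genes in their groups. Genes with under 1000 exon bases had a median level, on the log2 scale relative to their table, of 0.48 in tumour 217 and 0.17 in adjacent 217, against -0.30 to -0.04 in the other lung libraries. It was 0.13 in wild-type 177 and -0.07 to 0.05 in the other AT2 libraries. With 860 exon bases, B2m is the only one of the 10 genes in that class.

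The first comparison, tumour against adjacent lung, asks what characterises the tumours. Nlrc5 was lower in the tumours and was the only one of the 10 genes to pass the test across all genes (edgeR quasi-likelihood test, Benjamini-Hochberg adjusted p under 0.05). Thus 1 of 10 passed and was lower, and none was higher, a share like that of all genes, where 10% of the 19995 genes tested passed (7.18% lower and 2.86% higher). In counts these were 1436 lower and 571 higher, and with scaling by library totals alone 1840 lower and 393 higher. At an unadjusted p under 0.05, 4 of the 10 were lower and none was higher, where 16% of all genes were lower and 24% differed in either direction. All 10 log2 fold changes were negative, from -2.17 to -0.50, with a median of -0.97 against 0.04 over all genes tested. In bulk tissue, fewer cells of a type and less RNA per cell cannot be told apart.

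**Figure D1:**
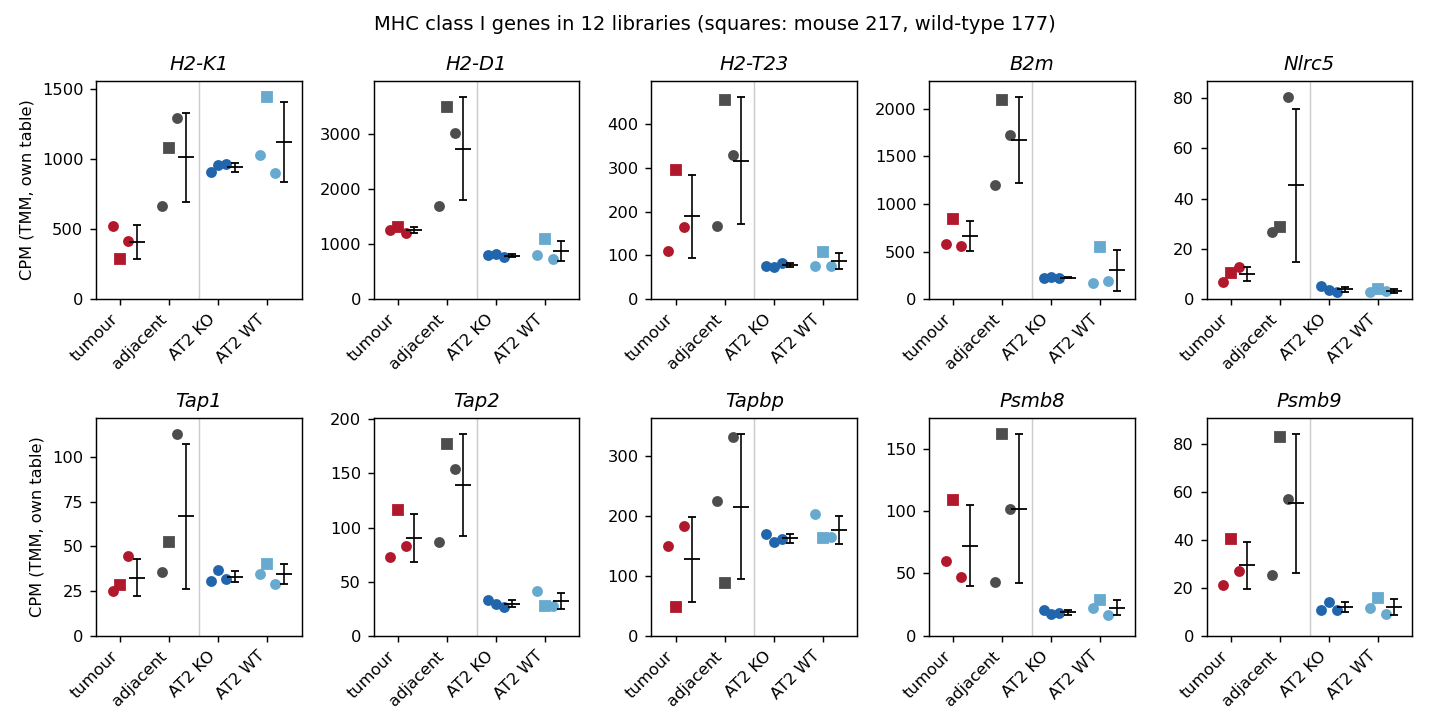
CPM of each of the 10 genes (vertical axes, linear from 0) in the 3 tumour, 3 adjacent lung, 3 knockout AT2 and 3 wild-type AT2 libraries. Points are libraries, squares are mouse 217 and wild-type 177, and bars are mean ± SD. For H2-K1, H2-D1, B2m and Nlrc5 all 3 tumours lie below all 3 adjacent libraries.

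Nlrc5 (chromosome 8, 94434356 to 94527272) was at 6.95, 10.4 and 12.7 CPM in tumours 102, 217 and 224, against 26.5, 28.8 and 80.3 CPM in the adjacent lung of the same mice. All 3 tumours lay below all 3 adjacent libraries, and adjacent 224 was far above the other 2. The log2 fold change was -2.17 ± 0.52 (SE, adjusted p = 0.0387), the largest fall of the 10 genes. Within mice the tumour held 0.263, 0.362 and 0.158 of the adjacent level. The call rests on every library: without any 1 of the 6 the adjusted p was 0.0534 to 0.117, and without both libraries of mouse 217 it was 0.0943, while the fold change stayed between -2.52 and -1.46.

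The classical heavy chains did not pass but separated the groups. H2-K1 (chromosome 17, 33996017 to 34000347) was at 522, 287 and 412 CPM in tumours 102, 217 and 224, against 666, 1076 and 1295 CPM in adjacent lung (log2 fold change -1.31 ± 0.40, adjusted p = 0.0850). H2-D1 (chromosome 17, 35262730 to 35267499) was at 1251, 1305 and 1192 CPM in tumours, against 1683, 3489.7 and 3008 CPM in adjacent lung (-1.13 ± 0.40, adjusted p = 0.130). Neither gene overlapped between groups. The H2-D1 level was nearly the same in the 3 tumours (1249.6 ± 56.5 CPM) and spread widely in adjacent lung (2727 ± 936 CPM), where mouse 102 was lowest. Mouse 102 also had the smallest difference, with tumour levels at 0.784 (H2-K1) and 0.743 (H2-D1) of adjacent, against 0.267 to 0.396 in the other 2 mice. The class I H2 genes are related in sequence, and how reads shared between them were counted is not given in the sources used here.

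B2m (chromosome 2, 122147686 to 122153083), whose product every class I heavy chain needs, behaved like them. It was at 582, 842 and 559 CPM in tumours, against 1199.8, 2094 and 1729 CPM in adjacent lung, and the groups did not overlap. The log2 fold change was -1.34 ± 0.38 (adjusted p = 0.0687), and within mice the tumour held 0.485, 0.402 and 0.323 of the adjacent level. With each mouse as a block B2m passed (adjusted p = 0.0263). Altogether 4 of the 10 genes had all 3 tumours below all 3 adjacent libraries, against 18.9% of all genes tested. The 4 are H2-K1, H2-D1, B2m and Nlrc5.

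The nonclassical H2-T23 (chromosome 17, 36029773 to 36032855) encodes Qa-1, the ligand of the CD94-NKG2A receptor of natural killer cells. It was at 109, 295 and 166 CPM in tumours, against 167, 456 and 329 CPM in adjacent lung. The groups overlapped because mouse 217 was high in both tissues, yet in each mouse the tumour was lower, at 0.655, 0.646 and 0.505 of adjacent (log2 fold change -0.74 ± 0.50, adjusted p = 0.446, or 0.0575 under the mouse block). The receptor genes Klrd1 (CD94) and Klrc1 (NKG2A) were themselves scarce, at 0.232 and 0.0654 CPM in tumours, against 2.86 and 0.822 CPM in adjacent lung, and did not pass.

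The peptide transporter and tapasin had smaller differences that overlapped between groups. Tap1 (chromosome 17, 34187553 to 34197225) was at 25.1, 28.2 and 44.6 CPM in tumours, against 35.5, 52.3 and 113 CPM in adjacent lung (log2 fold change -1.04 ± 0.48, adjusted p = 0.244). Its partner Tap2 (34203527 to 34216321) was at 72.6, 116 and 82.7 CPM, against 87.1, 177 and 154 CPM (-0.63 ± 0.36, adjusted p = 0.363). In both genes the tumour was lower in all 3 mice. Tapbp (33915899 to 33929292) was at 150.2, 47.3 and 183 CPM in tumours, against 225, 88.6 and 330.5 CPM in adjacent lung (-0.76 ± 0.61, adjusted p = 0.537). Both libraries of mouse 217 were low for Tapbp. The tumour share of adjacent was nearly even across mice, at 0.667, 0.533 and 0.554, and Tapbp passed under the mouse block (adjusted p = 0.0447). Annotated Tapbp overlaps the gene Zbtb22 over 3422 bases on the same strand, so reads there may be shared.

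The immunoproteasome subunits, inducible by interferon, did not pass either. Psmb9 (34181987 to 34187764) was at 21.2, 40.2 and 26.9 CPM in tumours, against 25.3, 83.0 and 57.1 CPM in adjacent lung (log2 fold change -0.91 ± 0.47, adjusted p = 0.307). Psmb8 (34197721 to 34201454) was at 60.3, 109 and 47.4 CPM, against 43.1, 162 and 102 CPM (-0.50 ± 0.53, adjusted p = 0.654). The groups overlapped in both genes, and in mouse 102 Psmb8 was higher in the tumour, 1.40 times the adjacent level. It was the single exception within mice: 9 of the 10 genes were lower in the tumour of all 3 mice, against 29.3% of all genes tested.

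**Figure D2:**
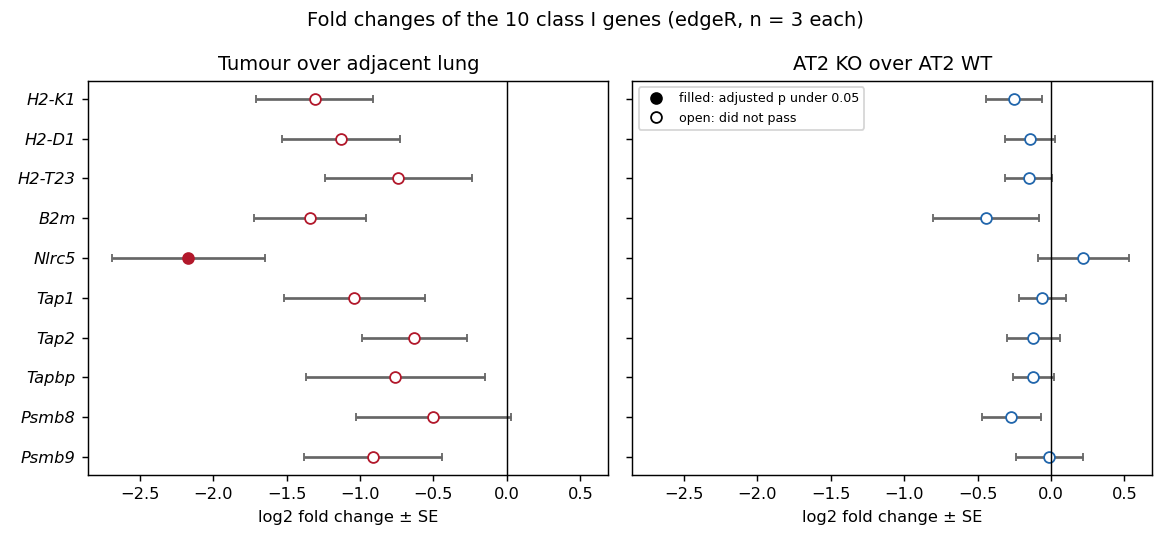
Log2 fold change ± SE of the 10 genes, tumour over adjacent lung (left) and AT2 knockout over wild type (right), from edgeR fits with n = 3 libraries in each group. Filled points passed at an adjusted p under 0.05. All 10 values on the left are negative and only Nlrc5 is filled, and on the right the values lie between -0.44 and 0.22 with none filled.

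With the mouse as a block, which uses the shared origin of each tumour and its adjacent lung, 3 of the 10 genes passed, all lower: B2m, Nlrc5 (adjusted p = 0.0192) and Tapbp. In that fit 14.9% of all genes tested passed, 9.34% lower and 5.57% higher. Tap1 (0.0588), H2-T23 (0.0575), H2-D1 (0.0781), H2-K1 (0.0791) and Psmb9 (0.0900) did not pass.

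Each inducible proteasome subunit replaces a constitutive one, so the ratio of the 2 within a library describes the mix independently of library scaling. Psmb8 over Psmb5 was 0.648, 0.443 and 0.563 in tumours 102, 217 and 224, against 0.683, 0.841 and 1.13 in adjacent lung. Psmb9 over Psmb6 was 0.247, 0.137 and 0.286 in tumours, against 0.383, 0.398 and 0.688 in adjacent lung. Psmb10 over Psmb7 was 0.471, 0.513 and 0.576 in tumours, against 0.764, 1.66 and 1.32 in adjacent lung. All 3 tumours were below all 3 adjacent libraries in each of the 3 pairs. The mean log2 ratio over the pairs was -1.35 ± 0.28 in tumours and -0.35 ± 0.40 in adjacent lung (SD, n = 3 each), a difference of -1.0. An exact two-sided permutation test gave p = 0.1, the smallest that 3 against 3 allows.

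The constitutive subunits themselves went the other way without passing. Psmb5, Psmb6 and Psmb7 averaged 141, 158 and 90.3 CPM in tumours and 115, 119 and 65.4 CPM in adjacent lung, with log2 fold changes of 0.29, 0.40 and 0.47 (adjusted p = 0.511 to 0.830). Psmb10, the inducible subunit that lies outside the MHC, averaged 46.7 ± 15.7 CPM in tumours, against 85.8 ± 52.0 CPM in adjacent lung (-0.88 ± 0.49, adjusted p = 0.340). Psme1, an interferon-inducible proteasome activator subunit, averaged 251 ± 166 CPM in tumours, against 110.0 ± 58.1 CPM in adjacent lung (1.19 ± 0.56, adjusted p = 0.257), higher in the tumour of each mouse, and passed under the mouse block (0.0398).

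**Figure D3:**
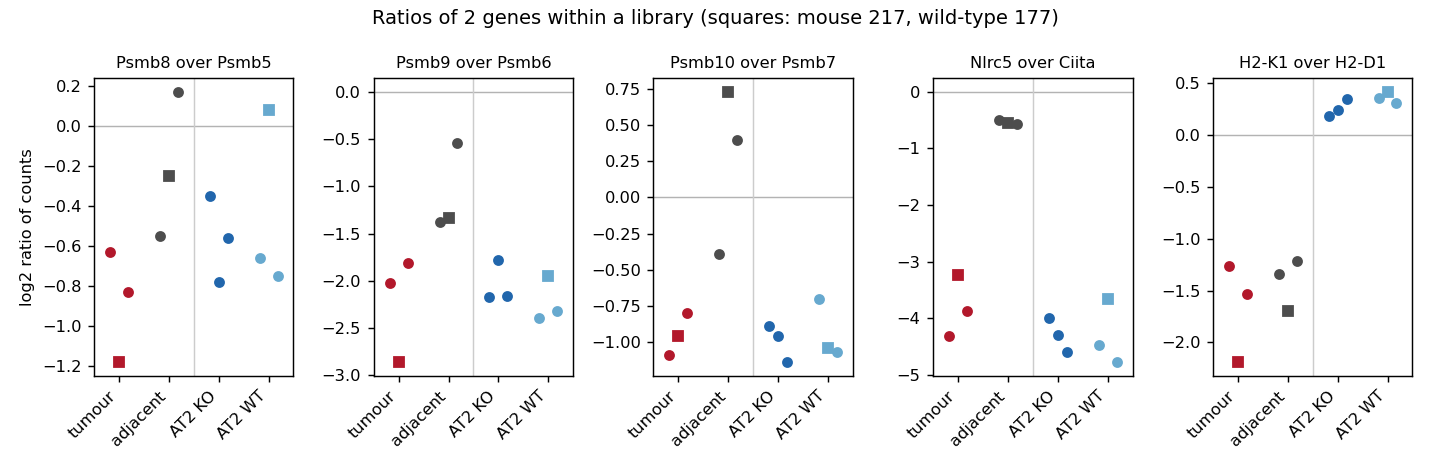
Log2 ratio of the counts of 2 genes within each library (vertical axes) for 3 pairs of inducible and constitutive proteasome subunits, Nlrc5 over Ciita and H2-K1 over H2-D1, in tumours, adjacent lung, knockout AT2 and wild-type AT2 libraries. Points are libraries and squares are mouse 217 and wild-type 177. In the first 4 panels the tumours lie below adjacent lung, and in the fourth they lie from -4.32 to -3.24 with adjacent lung at -0.56 to -0.49.

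Nlrc5 and its class II relative Ciita, set side by side after their values were seen, differed in opposite directions. Ciita was at 139, 98.7 and 186 CPM in tumours, against 37.3, 42.2 and 118 CPM in adjacent lung, higher in the tumour of each mouse (log2 fold change 1.10 ± 0.51, adjusted p = 0.243, or 0.0479 under the mouse block). The ratio of Nlrc5 to Ciita counts was 0.0499, 0.106 and 0.0681 in tumours, against 0.710, 0.682 and 0.680 in adjacent lung. It was steady in adjacent lung although Nlrc5 itself varied there from 26.5 to 80.3 CPM. Rfx5, a subunit of the complex that both transactivators use, averaged 24.6 ± 3.22 CPM in tumours, against 22.6 ± 5.95 CPM in adjacent lung (0.12 ± 0.31, adjusted p = 0.871).

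On chromosome 17, Psmb9, Tap1, Psmb8 and Tap2 lie within 34.3 kb inside the class II region, and their neighbours did not share one direction. Within 100 kb of this cluster, a window looked at after the values were seen, 16 genes were tested, the 4 included. H2-DMb2, a chain of the class II peptide exchanger, was higher in tumours, at 125 ± 24.6 CPM against 28.9 ± 13.4 CPM in adjacent lung (log2 fold change 2.11 ± 0.44, adjusted p = 0.0270). H2-Ob, part of the inhibitor of that exchanger, was lower, at 2.71 ± 1.33 CPM against 21.8 ± 11.7 CPM (-3.01 ± 0.58, adjusted p = 0.0220). Both calls were lost without tumour 102, tumour 224, adjacent 217, adjacent 224 or both libraries of mouse 217 (adjusted p up to 0.0842). The class II chains H2-Ab1 (1284 ± 239 CPM in tumours, 683 ± 173 CPM in adjacent lung) and H2-Aa (1617 ± 451 CPM in tumours, 888 ± 298 CPM in adjacent lung) had all tumours above all adjacent libraries without passing (adjusted p = 0.175 and 0.263). Psmb9 and Tap1 are transcribed away from each other, and their annotated genes overlap by 212 bases, so reads of that stretch cannot be assigned to one of them without strand.

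A further list held other class I genes. Of 17 nonclassical class I and class I-like genes, 16 were tested, 4 were lower, none was higher (edgeR; none at an unadjusted p under 0.05, with DESeq2 or with limma-voom) and 12 did not pass, where 7.18% of all genes tested were lower. The median log2 fold change was -1.07, and H2-Q2 (1.37) and H2-M2 (1.15) were positive without passing. H2-Q6 and H2-Q7, of the Qa-2 family, were among the 4. H2-Q6 was at 40.6, 50.1 and 64.6 CPM in tumours, against 213, 244 and 438 CPM in adjacent lung (-2.53 ± 0.40, adjusted p = 0.0125), and passed without any 1 library, though not without both of mouse 217 (0.0536). H2-Q7 was at 35.9, 43.0 and 68.3 CPM in tumours, against 149.5, 185 and 383 CPM in adjacent lung (-2.28 ± 0.47, adjusted p = 0.0250). It did not pass without tumour 102, 217 or 224, adjacent 224 or both libraries of mouse 217 (adjusted p up to 0.0870). H2-T24 was at 4.46, 1.31 and 2.80 CPM in tumours, against 33.5, 17.3 and 34.3 CPM in adjacent lung (-3.31 ± 0.55, adjusted p = 0.0146). It did not pass without tumour 224 or adjacent 224 (0.0534 and 0.0529). The fourth, named after its value was seen, was H2-Q10 (3.02 ± 1.14 CPM in tumours, 11.3 ± 3.42 CPM in adjacent lung, adjusted p = 0.0474), which passed neither in any fit that left out a library (up to 0.163) nor with no filter on low counts (0.0572). Under the mouse block 8 of the 16 passed, all lower, where 9.34% of all genes tested were lower in that fit.

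Some genes that interferon induces were lower in tumours, in both of their lists, where 7.18% of all genes tested were lower. Of 21 tested genes of the interferon gamma response, 7 were lower, none was higher and 14 did not pass (median -1.55). Of 25 of the type I response, 7 were lower, none was higher and 18 did not pass (median -1.11). Members on the other side without passing included Ciita (1.10) and Iigp1 (0.54) in the first list and Mx1 (0.87) and Ifi44 (0.25) in the other. In neither list was a gene higher at an unadjusted p under 0.05, with DESeq2 or with limma-voom. Gbp2, a guanylate-binding GTPase of host defence, was at 14.5, 10.4 and 11.5 CPM in tumours, against 51.5, 63.8 and 96.1 CPM in adjacent lung (-2.54 ± 0.35, adjusted p = 0.00981). Usp18, which restrains interferon receptor signalling, was at 2.74, 3.87 and 3.72 CPM in tumours, against 23.5, 22.8 and 28.3 CPM in adjacent lung (-2.85 ± 0.34, adjusted p = 0.00738). Both passed in each of the 6 fits that left out 1 library and without mouse 217.

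Further interferon-response genes passed less firmly. Gbp7 averaged 12.7 ± 1.71 CPM in tumours, against 48.5 ± 17.8 CPM in adjacent lung (adjusted p = 0.0213) but lost its call without tumour 102 or 224 or adjacent 102 or 224 (up to 0.0790). Gbp4 averaged 9.07 ± 2.04 CPM in tumours, against 70.8 ± 60.6 CPM in adjacent lung (adjusted p = 0.0261) but lost its call without tumour 102 or 224 or without mouse 217 (up to 0.0933). Of the antiviral Ifit family, Ifit3 averaged 14.1 ± 5.69 CPM in tumours, against 50.6 ± 9.62 CPM in adjacent lung (adjusted p = 0.0261) but lost its call without any 1 library other than tumour 217 (up to 0.0923). Ifit3b averaged 3.03 ± 0.598 CPM in tumours, against 12.8 ± 2.81 CPM in adjacent lung (adjusted p = 0.0205) but lost its call without tumour 102, tumour 224, adjacent 217, adjacent 224 or mouse 217 (up to 0.0851). Ifng itself, the gene of interferon gamma, was at 0.159 ± 0.143 CPM in tumours, against 0.412 ± 0.367 CPM in adjacent lung and did not pass (adjusted p = 0.536).

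**Figure D4:**
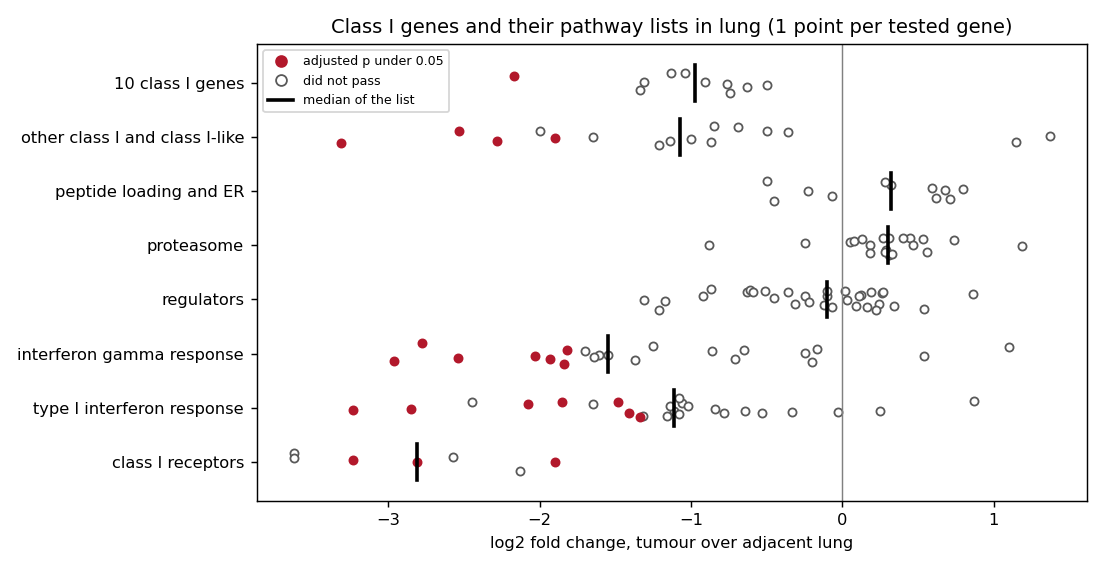
Log2 fold change of tumour over adjacent lung (horizontal axis) for every tested gene of the 10 class I genes and the 7 pathway lists (rows). Filled points passed at an adjusted p under 0.05 and black bars are list medians. The medians of the interferon gamma (-1.55) and type I (-1.11) lists lie left of 0, while those of peptide loading (0.32) and the proteasome (0.30) lie right of it.

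The general machinery of peptide loading and the proteasome did not follow. None of 11 peptide-loading and endoplasmic reticulum genes passed (edgeR; none at an unadjusted p under 0.05, with DESeq2 or with limma-voom; median 0.32), nor did any of 20 proteasome genes (the same counts; median 0.30). The chaperone Hspa5 averaged 532 ± 193 CPM in tumours, against 326 ± 88.6 CPM in adjacent lung (0.71 ± 0.40, adjusted p = 0.351). Sec61a1, of the translocation channel, averaged 367 ± 131 CPM in tumours, against 211 ± 49.8 CPM in adjacent lung (0.80 ± 0.38, adjusted p = 0.252).

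Of 32 regulators of class I, none passed (median -0.10), nor did any with limma-voom, while 1 was lower with DESeq2. At an unadjusted p under 0.05, 5 differed (1 higher and 4 lower), where 16% of all genes were lower and 24% differed in either direction. With the mouse as a block 1 was higher and 3 were lower, where 5.57% and 9.34% of all genes were. Irf8, an interferon regulatory factor of myeloid and B cells, was at 32.6, 42.5 and 18.6 CPM in tumours, against 42.8, 93.7 and 96.4 CPM in adjacent lung, without overlap (-1.31 ± 0.44, adjusted p = 0.112).

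Some genes in a list of T, natural killer and myeloid cell receptors, not all of them readers of class I itself, were lower in the tumours. Of 11 listed, 7 were expressed enough to be tested, 3 were lower, where 7.18% of all genes were, and none was higher (also none at an unadjusted p under 0.05, with DESeq2 or with limma-voom). All 7 had every tumour below every adjacent library, against 18.9% of all genes tested, with a median log2 fold change of -2.81. Genes as scarce in tumours as Klrd1 and Klrc1 (0.232 and 0.0654 CPM) could pass the filter on low counts only through adjacent lung. For them a lower tumour level is in part given by the filter. Cd8b1, a chain of the CD8 co-receptor, averaged 0.516 ± 0.427 CPM in tumours, against 4.86 ± 1.95 CPM in adjacent lung (-3.23 ± 0.77, adjusted p = 0.0382). Klrk1 (NKG2D), an activating receptor of natural killer cells, averaged 0.460 ± 0.113 CPM in tumours, against 3.24 ± 0.290 CPM in adjacent lung (-2.81 ± 0.54, adjusted p = 0.0214). Both calls were lost without any 1 library other than tumour 217, and without mouse 217 (adjusted p up to 0.117). Cd8b1 also lost its call with no filter on low counts (0.0533). Pirb, an inhibitory receptor of myeloid cells, averaged 21.6 ± 2.03 CPM in tumours, against 80.6 ± 42.3 CPM in adjacent lung (-1.90 ± 0.46, adjusted p = 0.0398). It did not pass without any 1 library other than adjacent 102, without mouse 217, with limma-voom (0.0560) or under the mouse block (0.0570).

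Over the 7 pathway lists together, 21 of 131 tested genes were lower and none higher, against 7.18% lower and 2.86% higher over all genes. With the mouse as a block 32 were lower and 3 higher, against 9.34% and 5.57% over all genes. The 3 were Psme1, Ptpn2 and Ciita.

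Markers of several cell types were also lower in tumours, where 7.18% of all genes tested were lower. Of 14 endothelial markers 11 were lower in tumours, and their sum was 1033 to 1234 CPM in tumours and 4339 to 6866 CPM in adjacent lung. Natural killer and cytotoxic markers (5 of 11 lower) summed to 10.7 to 15.6 CPM in tumours, against 43.4 to 73.4 CPM in adjacent lung. T cell markers (2 of 13 lower) summed to 12.8 to 57.8 CPM in tumours, against 58.0 to 197 CPM, and B cell markers (4 of 9 lower) to 40.7 to 156 CPM, against 144 to 809 CPM. Airway markers (6 of 9 tested lower) stood at 1221 to 2764 CPM in tumours, against 16774 to 36338 CPM in adjacent lung. Dendritic (2 of 10 lower), alveolar type 1 (3 of 10), stromal (2 of 12) and neutrophil markers (1 of 7) also had members that were lower and none that was higher, while no macrophage and monocyte marker (of 15) and no erythroid marker (of 6) passed, with edgeR. At an unadjusted p under 0.05, where 16% of all genes were lower, 3 macrophage and monocyte and 3 erythroid markers were lower. With DESeq2 these counts were 1 and 4, and with limma-voom 0 and 3. Under the mouse block 9.34% of all genes tested were lower and 5.57% higher. In that fit 1 macrophage and monocyte and 5 erythroid markers were lower. So were 6 T cell markers, 6 B cell, 6 stromal, 3 neutrophil and 2 general leukocyte markers, and 7 AT2 markers were higher. The sum of the 12 AT2 markers went the other way (2 markers higher, where 2.86% of all genes were). It was 95339 to 236911 CPM in tumours, against 28575 to 61654 CPM in adjacent lung. Sftpc alone was at 38768 to 182981 CPM in tumours, against 13009 to 31494 CPM. Of the 12, 1 had a negative log2 fold change, Lyz2 (-0.59, adjusted p = 0.707). Lpcat1 in mouse 217 (0.115 of adjacent) and Napsa in mouse 224 (0.928) were also lower in the tumour. No marker of these lists was at 0 in all 6 lung libraries. The part of these differences in the class I values was not tested.

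General leukocyte markers (1 of 10 lower) differed between mice. Their sum was 738, 743 and 522 CPM in tumours 102, 217 and 224, against 759.9, 2734 and 2477 CPM in adjacent lung. In mouse 102 this sum was close in the 2 tissues. Its members there ranged from 0.540 (Coro1a) to 1.44 (Itgb2) of the adjacent level, with Ptprc at 0.603. Endothelial markers in that mouse ranged from 0.0427 (Cldn5) to 0.615 (Car4). Nlrc5, B2m, H2-K1 and H2-D1 were at 0.263, 0.485, 0.784 and 0.743 of the adjacent level in that mouse. The part of leukocyte content in these values was not tested. Adjacent 102 was the lowest adjacent library for 9 of the 10 genes, the exception being Tapbp.

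The second comparison asks how AT2 cells of knockout mice differ from those of wild-type mice at 6 months. In sorted AT2 cells none of the 10 class I genes passed (edgeR, adjusted p = 0.984 to 0.998), none did so at an unadjusted p under 0.05, with DESeq2 or with limma-voom, and knockout and wild-type libraries overlapped in all 10. Of the 14053 genes tested, 0% passed and 347 (2.47%, with 1.15% lower) had an unadjusted p under 0.05. DESeq2 gave 1 gene and limma-voom none, and 4.11% of all genes had every knockout library below every wild-type one. The 10 log2 fold changes lay between -0.44 and 0.22, with a median of -0.13 against -0.01 over all genes.

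H2-K1 was at 903, 958 and 962 CPM in knockout 175, 179 and 191, against 1026, 1440.3 and 897 CPM in wild-type 176, 177 and 190 (log2 fold change -0.25 ± 0.19, 95% interval -0.62 to 0.12). H2-D1 was at 798, 813 and 759 CPM in knockout cells, against 808, 1084 and 728 CPM in wild-type cells (-0.14 ± 0.17, -0.49 to 0.20). In both genes wild-type 177 was the highest library and the other 5 lay close together. B2m was at 219, 231 and 222 CPM in knockout cells, against 165, 552 and 194 CPM in wild-type cells (-0.44 ± 0.36, -1.15 to 0.27). All 3 knockout libraries lay above wild-type 176 and 190 and far below wild-type 177. Without wild-type 177 the B2m fold change was 0.31, and those of H2-D1 (0.04), H2-T23 (0.04), Tap1 (0.06) and Psmb9 (0.22) also changed sign.

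H2-T23 was at 76.8, 74.0 and 83.1 CPM in knockout cells, against 74.9, 108 and 76.4 CPM in wild-type cells. Tap1 was at 30.8, 36.6 and 31.9 CPM, against 34.3, 40.3 and 29.1 CPM, and Tap2 at 33.1, 29.5 and 26.6 CPM, against 41.1, 27.9 and 27.8 CPM. Tapbp was at 169, 156 and 161 CPM in knockout cells, against 202, 162 and 164 CPM in wild-type cells. For Tap2 and Tapbp it was wild-type 176 that was highest. Psmb8 was at 20.9, 17.1 and 18.2 CPM in knockout cells, against 21.9, 28.8 and 16.9 CPM in wild-type cells, and Psmb9 at 10.8, 14.2 and 10.9 CPM, against 11.5, 15.6 and 9.13 CPM.

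Nlrc5 was scarce in AT2 cells, at 5.02, 3.73 and 2.83 CPM in knockout cells and 2.65, 4.19 and 3.10 CPM in wild-type cells (0.22 ± 0.31, 95% interval -0.39 to 0.84). Wild-type 177 was the highest AT2 library for 7 of the 10 genes, all but Tap2, Tapbp and Nlrc5. Over all 10 genes the lowest bound was -1.15 (B2m) and the highest 0.84 (Nlrc5), while Tapbp reached only from -0.40 to 0.16. The 3 libraries in each group cannot tell apart changes inside a gene's own interval.

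The ratios within a library did not separate knockout from wild-type AT2 cells. The mean log2 ratio of inducible to constitutive proteasome subunits was -1.14, -1.18 and -1.29 in knockout 175, 179 and 191, against -1.25, -0.97 and -1.38 in wild-type 176, 177 and 190 (difference 0.00, exact two-sided permutation p = 1.0). Of the pathway lists, 99 genes were tested in AT2 cells and none passed (none at an unadjusted p under 0.05, with DESeq2 or with limma-voom). Their median log2 fold change was -0.05. The largest difference among the genes named by the rule was that of Psme2, the partner of Psme1, at 16.9, 16.5 and 20.1 CPM in knockout cells and 19.6, 46.7 and 18.5 CPM in wild-type cells (-0.66 ± 0.31, adjusted p = 0.984), where wild-type 177 again stood alone.

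Between the groups of the 2 tables, levels can be described but were not tested, because each table was normalised on its own. Shorter genes were also lower in AT2 cells relative to lung, and the part of this in the levels was not tested. For 9 of the 10 genes adjacent lung had the highest mean of the 4 groups, the exception being H2-K1, which averaged 1121 ± 284 CPM in wild-type AT2 cells and 1012 ± 319 CPM in adjacent lung, with overlapping libraries. Nlrc5 fell in order from adjacent lung (26.5 to 80.3 CPM) to tumours (6.95 to 12.7), knockout AT2 cells (2.83 to 5.02) and wild-type AT2 cells (2.65 to 4.19), and only the 2 AT2 groups overlapped. B2m had the same first 2 groups, at 1674 ± 449.6 and 661 ± 157 CPM, above wild-type (304 ± 216) and knockout AT2 cells (224 ± 6.22), which overlapped. Tap1 and Tapbp had no neighbouring groups without overlap, and Tap1 averaged 32.6 ± 10.5 CPM in tumours, 33.1 ± 3.04 in knockout and 34.6 ± 5.61 in wild-type AT2 cells.

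Ratios of 2 genes within a library do not depend on how a table was scaled, and can be set beside each other across the tables as a description. A ratio of genes of unlike length can still carry the length difference between the tables. The part of that difference in these ratios was not tested. H2-K1 over H2-D1 was 0.220 to 0.417 in tumours and 0.308 to 0.430 in adjacent lung, but 1.13 to 1.27 in knockout and 1.23 to 1.33 in wild-type AT2 cells. How reads shared between related H2 genes were counted is not given for either table, and its part in this ratio was not tested. Nlrc5 over Ciita was 0.0499 to 0.106 in tumours, 0.0416 to 0.0628 in knockout and 0.0364 to 0.0792 in wild-type AT2 cells, against 0.680 to 0.710 in adjacent lung. The geometric mean ratio of inducible to constitutive proteasome subunits was 0.315 to 0.452 in tumours, 0.410 to 0.455 in knockout and 0.384 to 0.511 in wild-type AT2 cells, against 0.585 to 1.01 in adjacent lung. In the last 2 ratios tumours and AT2 cells overlapped, and adjacent lung lay above both.

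Per kilobase of exon, the scale on which genes can be compared, levels spanned a wide range. In tumours B2m led at 768 CPM per kb, followed by H2-D1 (485), H2-K1 (139), H2-T23 (65.8) and Tapbp (35.0), and Nlrc5 was last at 1.18. Adjacent lung had the same order of the 10 genes, from 1947 for B2m and 1057 for H2-D1 to 5.32 for Nlrc5. In knockout AT2 cells H2-K1 led at 320.4 CPM per kb, ahead of H2-D1 (306) and B2m (260.1), and in wild-type AT2 cells it led at 382, ahead of B2m (353) and H2-D1 (339). Nlrc5 was last in both, at 0.455 and 0.39. The part of the length difference between the tables in the changed order was not tested.

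The genes whose pattern over the 12 libraries was most like the mean of the 10, by mean absolute difference of centred log2 CPM among 9724 genes, were H2-Q4 (0.0893), H2-T22 (0.0937), Acat2 (0.123), Mocos (0.133) and Tor3a (0.140). H2-Q4 and H2-T22 are class I genes themselves, Acat2 is an acetyl-CoA acetyltransferase, Mocos a molybdenum cofactor sulfurase and Tor3a a torsin. H2-Q4 averaged 175 ± 30.8 CPM in tumours, against 386 ± 119 CPM in adjacent lung (log2 fold change -1.14 ± 0.35, adjusted p = 0.0870). On the same measure H2-D1 was at 0.0775, the closest of the 10 genes, and Tapbp at 0.512, the farthest. Nlrc5 was not ranked, being under the minimum of 5 CPM in AT2 cells.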

How the data were processed

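Poly-A RNA was sequenced in 12 libraries, 4 groups of 3, with a NEBNext Ultra RNA kit that does not mark strand. The 2 deposited tables, 1 for lung and 1 for AT2 cells, hold whole-number counts per gene as the authors made them, not normalised. Per the submitters' processing notes, GRCm38 (mm10) was the genome, and HISAT2, StringTie 1.3.3b, Trimmomatic 0.39, DESeq2 1.28.1 and FastQC were used. How reads were assigned to genes, and with which annotation, is not given in the sources used here. Names and coordinates came from GENCODE M21; 1035 lung identifiers (0.0388% of counts) and 37 AT2 identifiers (0.0038%) had no name.

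Each table was tested on its own in edgeR 4.0.16 (R 4.3.3; quasi-likelihood, filter on low counts, TMM, group as the only term) with Benjamini-Hochberg adjustment over all genes tested, after tests on simulated data. A fold change is tumour over adjacent, or knockout over wild type. Alternatives used DESeq2 1.42.0, limma-voom 3.58.1, other scalings and filters, a mouse block and libraries left out. Tumour and adjacent lung with one number came from one animal, and their deviations from the group means went together (Pearson r across genes of 0.273, 0.459 and 0.366), so the numbers pair the lung samples. The tables share 54186 identifiers.

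The 10 genes, the 7 pathway lists (137 genes) and 13 marker lists were chosen with earlier results of these data known. Named were the 10 genes, up to 3 passing genes of a pathway list per direction by adjusted p, or where none passed the 2 of largest change at 5 CPM or more, Med23, and the 5 genes of most similar pattern. A gene that the rule named is not reported here. Others are said to be named after their values were seen, or belong to a ratio, a window or a marker check. Ratios are of counts plus 0.5. Beyond strain, genotype and age, the animals are told apart here only by their numbers. The p-values set differences between groups against the spread between these samples.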

Additional observations from a re-analysis of the deposited data

How the results depend on the processing

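All 10 log2 fold changes between tumour and adjacent lung stayed negative under the 13 alternatives. The number of class I genes that passed as lower was 1 with all libraries. It was 2 with scaling by library totals alone, 4 with the DESeq2 Wald test (H2-K1, H2-D1, B2m and Nlrc5), 2 with limma-voom and 0 without mouse 217 or without any 1 library. Under library totals alone the all-gene median was -0.18 and that of the 10 genes -1.21. Pathway genes that passed as lower, 21 with all libraries, were 36 with DESeq2, 5 without mouse 217 and 4 to 14 with 1 library left out (0 to 1 higher). Over all genes 1436 were lower and 571 higher, with DESeq2 2584 and 1145, without mouse 217 698 and 149, and with 1 library left out 461 to 1393 and 137 to 461. Fewer libraries give less power, and the cause of lost calls was not tested.

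With the mouse as a replicate block, 3 class I genes were lower, 32 pathway genes lower and 3 higher, and over all genes 1867 lower and 1113 higher. Within mice the proteasome ratio differed by -1.0 (exact sign-flip p = 0.250, the smallest that 3 pairs allow; added after seeing the data). No paired analysis was possible for AT2 cells because the groups share no mouse number.

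Values in AT2 cells were near 0 and changed sign easily. By library totals alone Tap1 was at 0.00 and Psmb9 at 0.06, and with limma-voom Psmb9 at 0.01. With 1 library left out H2-D1 lay between -0.26 and 0.04, B2m between -0.74 and 0.31, Tap1 between -0.17 and 0.06, Tap2 between -0.21 and 0.09, Nlrc5 between -0.01 and 0.42, Psmb9 between -0.18 and 0.22 and H2-T23 between -0.24 and 0.04. The proteasome ratio differed by -0.12 for Psmb8 over Psmb5, -0.06 for Psmb10 over Psmb7 and -0.09 to 0.12 with 1 library left out. Genes that passed, 0 with all libraries, were 6 lower and 11 higher without the filter on low counts, 1 lower with DESeq2 and 1 higher without wild-type 176.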
